A study of Mus musculus with 4 samples.

Results

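The genes described here were chosen by name as 5 of the 27998 genes in the count table: Csf1, which encodes the growth factor CSF-1 (M-CSF), Csf1r, its receptor CD115, and Csf3r, Flt3 and Kit, the receptors for G-CSF, FLT3 ligand and stem cell factor. They were followed by deposited cell type and condition, by cluster and surface-defined subset of the monocyte, macrophage and dendritic cells, and, for Csf1r, against the CD115 antibody tag on the same cells. The data are from CITE-seq, which counts RNA molecules as unique molecular identifiers (UMIs) and antibody-bound surface proteins as tags in single cells. Both libraries hold CD11b+ sorted spleen cells of C57BL/6 mice aged 8 to 12 weeks. One came from mice in the steady state, with no cytokine given. The other came from mice given 10 µg of GM-CSF under the skin once daily on 3 days and taken 24 hours after the last injection. The number of mice behind each library is not given in the sources used here, and both share the CD11b sort.

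CSF-1 binds CD115 on monocytes and macrophages and supports their survival, and the bound receptor is taken into the cell and degraded. The G-CSF receptor drives the making and release of neutrophils. Flt3 and Kit are receptor tyrosine kinases of the same class as CD115. They are best known on stem and progenitor cells, and Flt3 stays on dendritic cells and their precursors.

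There was 1 library for each condition, so no difference between conditions has a replicate check and none was tested. Each sum of UMIs is given as CPM, its count scaled to the total UMIs of the same cells, with an exact Poisson 95% interval, each share of cells with an exact Clopper-Pearson interval, and each ratio with an exact binomial interval. All of these cover counting error only. A gene with at least 50 UMIs over both groups is called higher or lower when its CPM differs at least 2-fold, and the share of all genes so called is given as background. The steady-state library held 4827 cells and 22358903 UMIs (median 3371 a cell), and the GM-CSF library 6804 cells and 35007567 UMIs (median 4916), with 8 barcodes present in both. Of these, 2135 and 3940 were the monocyte, macrophage and dendritic cells that were clustered again. They are called here the MoMacDC cells, and they span the deposited types MoMacDC_c1, c2, c4 and c5 and Progenitor DC.

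Some deposited names went against the markers. The cells named cDC2-A (214 and 20) were led by the cytotoxic and natural killer genes Klrc1, Klrb1a, Prf1 and Ifng, with a summed NK marker level of 16447 CPM in steady state and 16516 after GM-CSF, and are called by their deposited name only. The 43 steady-state cells of MoMacDC_c4 held 10220 CPM of the same NK markers. MoMacDC clusters 11, 14 and 15 held 19674 to 159917 CPM of 10 neutrophil markers. Progenitor DC cells were led by Dscam, Ppp1r14a and Scn3a in steady state and by Gp2, Scn3a and Cdh17 after GM-CSF. Clec4a4 came at place 9 in steady state, and Esam and Dtx1 at places 9 and 10 after GM-CSF. These 3 are known from splenic cDC2. The summed cDC2 markers of Progenitor DC stood at 525 and 258 CPM, below the 834 and 506 CPM of MoMacDC_c2. The stem and progenitor markers of Progenitor DC stood at 51.8 and 15.4 CPM, with Cd34, Hlf and Gata2 at 0.

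Csf1, the ligand, was found mainly in the cells deposited as granulocytes. After GM-CSF the 10 genes leading these cells took in Il1b, Clec4d, Csf3r and Csf1 itself. In steady state the granulocytes were led by BC100530, Rufy4 and Stfa2l1. In steady state these 1929 cells held 871 Csf1 UMIs, 237 CPM (222 to 253), and 27.7% of them had at least 1. After GM-CSF the 1791 granulocytes held 250 UMIs, 104 CPM (91.2 to 117), and 10.8% had at least 1. The ratio after GM-CSF over steady state was 0.437 (0.378 to 0.504), a lower call, against 3.20% of genes called lower in granulocytes. Median depth was 1770 UMIs a cell in steady state and 1229 after GM-CSF, and with cells thinned to 1000 UMIs 17.8% and 8.19% of 1921 and 1295 cells kept a Csf1 UMI, shallower cells (8 and 496) being left out. The cells deposited as neutrophils, which are led by the granule genes Mpo, Elane, Ltf, Camp and Ngp, held 4 and 21 Csf1 UMIs, 3.67 and 4.25 CPM. The granulocyte level was 64.7 times (25.2 to 238) the neutrophil level in steady state and 24.4 times (15.6 to 40.04) after GM-CSF. Between these 2 types 27.0% and 25.4% of genes were called higher, so such a call is common here.

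Granulocytes carried 82.4% (80.0 to 84.7) of the 1057 Csf1 UMIs in steady state and 79.4% (74.5 to 83.7) of the 315 after GM-CSF. They made up 39.96% and 26.3% of the cells and only 16.4% and 6.89% of all UMIs. The MoMacDC cells, with 66.9% and 77.4% of all UMIs, carried 15.8% and 13.02% of the Csf1 UMIs.

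**Figure D1:**
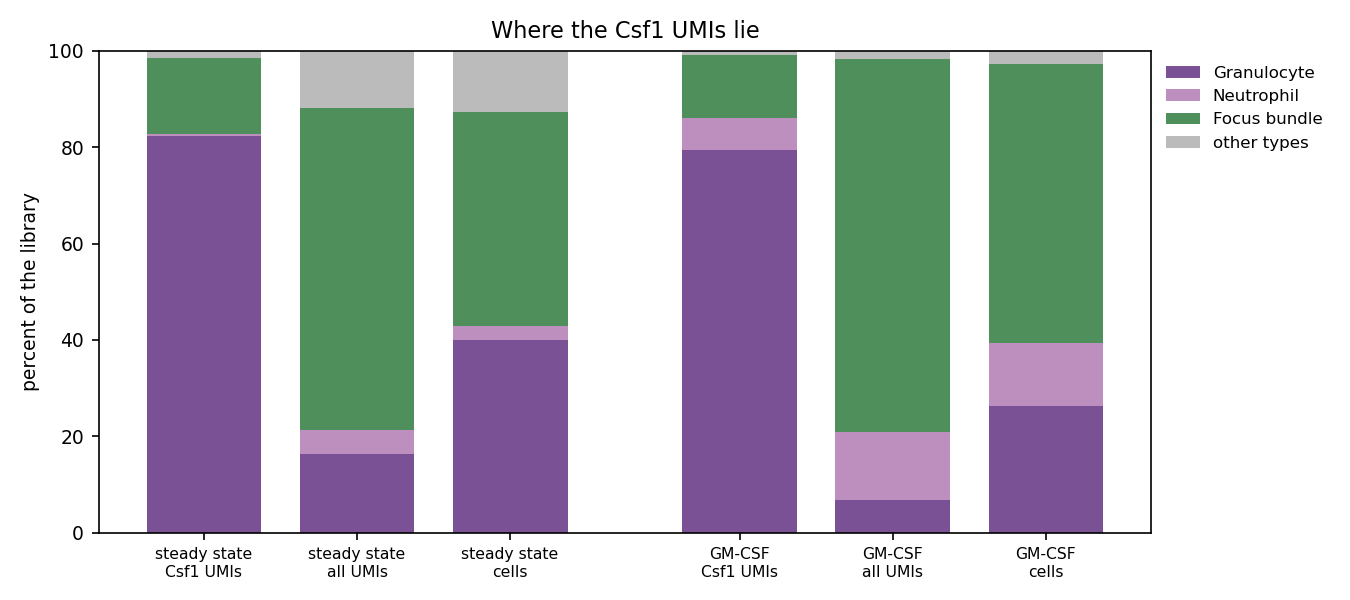
Stacked bars of the percent of each library's Csf1 UMIs, of all its UMIs and of its cells that lie in granulocytes, neutrophils, MoMacDC cells (Focus bundle in the key, the deposited name) and other types. Granulocytes take 82.4% and 79.4% of the Csf1 UMIs against 16.4% and 6.89% of all UMIs.

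Csf1 in the MoMacDC cells was low and uneven. It stood at 11.2 CPM (9.54 to 12.997) in steady state and, after GM-CSF, at 1.51 (1.09 to 2.05), a ratio of 0.136 (0.0939 to 0.192), where 9.46% of genes were called lower. Of the 167 steady-state UMIs, 90 lay in cluster 11 (70.9 CPM) and 22 in cluster 14 (63.7 CPM), both with neutrophil markers. Without clusters 11, 14 and 15 the ratio was 0.292, and the part of the neutrophil RNA in it was not tested further. B cells, used here as a type that should lack these RNAs, held 4 Csf1 UMIs in 196 steady-state cells, 4.57 CPM (1.24 to 11.7) and 2.04% of cells at a median of 2976 UMIs. After GM-CSF they held 0 in 79 cells, a share with an interval up to 4.56%. The MoMacDC share in steady state (5.43% of cells, median 6894 UMIs) was 0.754% in cells thinned to 1000 UMIs, against 1.05% in thinned B cells, where 2 of 190 B cells had a UMI (0.128 to 3.75%). Outside clusters 11 and 14, steady-state Csf1 in clusters of at least 20 cells overlapped the B cell interval, except in cluster 13. Cluster 13 held 10 UMIs in 29 cells, 44.6 CPM (21.4 to 81.9). Cluster 11 kept a UMI in 7.01% of thinned cells. MoMacDC_c5 held 45 Csf1 UMIs in steady state, 20.9 CPM (15.3 to 28.0), and 0 after GM-CSF. Progenitor DC held 23 UMIs, 18.6 CPM (11.8 to 27.9), and 5 after GM-CSF. Most of these UMIs lay in the clusters with neutrophil markers. Cluster 4, which made up 88.9% of MoMacDC_c5 in steady state, held 6 Csf1 UMIs (3.09 CPM). Clusters 9 and 12, most of Progenitor DC, held 3 and 1 (2.996 and 4.06 CPM), and cluster 14, which took in 29 of the 152 Progenitor DC cells, held 22 over all its cells.

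The other ligand genes had few UMIs in the granulocytes. Il34, the second CD115 ligand, had 0 UMIs in granulocytes, neutrophils and MoMacDC cells of both libraries. Csf3, which encodes G-CSF, had 1 UMI in the MoMacDC cells of the steady state and 0 in the other groups named. Flt3l, the FLT3 ligand gene, had 12 and 14 UMIs in granulocytes and 108 and 174 (7.22 and 6.42 CPM) in the MoMacDC cells, and Kitl, the stem cell factor gene, had 0 and 13 UMIs there.

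The 250 bases before the RefSeq start of Csf1 and of Flt3 are shown, for a ligand found mainly in granulocytes and a receptor found mainly in MoMacDC cells. The windows of Csf3r and Kit overlap an annotated gene and are not printed. Both genes shown lie on the minus strand of GRCm38 (p6), and their windows lie outside the annotated genes. The gene bodies are at chr3:107741048-107760469 for Csf1 and chr5:147330741-147400489 for Flt3. The windows, chr3:107760470-107760719 and chr5:147400490-147400739, are printed 5′ to 3′ on the gene strand with any GC box GGGCGG in capitals.
Csf1: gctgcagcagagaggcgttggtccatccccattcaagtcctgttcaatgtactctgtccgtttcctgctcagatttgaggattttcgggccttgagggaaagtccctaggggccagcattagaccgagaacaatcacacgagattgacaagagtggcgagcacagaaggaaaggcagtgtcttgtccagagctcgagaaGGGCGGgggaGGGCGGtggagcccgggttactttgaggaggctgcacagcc
Flt3: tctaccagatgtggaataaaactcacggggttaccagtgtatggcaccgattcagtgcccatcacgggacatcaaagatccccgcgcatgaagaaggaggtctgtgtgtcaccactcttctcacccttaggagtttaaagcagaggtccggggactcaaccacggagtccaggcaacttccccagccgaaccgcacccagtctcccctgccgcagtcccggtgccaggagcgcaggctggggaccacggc
GGGCGG was found 2 times before Csf1, beginning 51 and 41 bases before the start, and not before Flt3. It occurs on either strand in 32.7% of 32851 promoter windows of this length. Neither window holds GAGGAA, an ETS core of the kind bound by PU.1 and present in 23.3% of windows, or TTGCNNAA, a C/EBP core present in 9.56%. GAGGAA was found once before Csf3r, beginning 86 bases before the start, and once before Kit, where GGGCGG was also found.

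Csf1r was the receptor of the monocyte and macrophage cells. In steady state the MoMacDC cells held 8299 Csf1r UMIs, 555 CPM (543 to 567), and 87.9% of them had at least 1. After GM-CSF they held 5053 UMIs, 186.5 CPM (181 to 192), in 64.0% of cells. The ratio was 0.336 (0.324 to 0.348), beside 9.46% of genes called lower in this comparison. Depth was close between the libraries here (medians 6894 and 6654 UMIs), and in cells thinned to 1000 UMIs 43.2% and 17.8% kept a Csf1r UMI. Of the 5 genes, 3 were called lower in the MoMacDC cells (Csf1r, Csf1 and Csf3r) and none higher, and the Csf1 call rests on the low and uneven counts given above. Flt3 (ratio 0.514) and Kit (0.744) did not pass.

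By cell type, Csf1r was highest in the few macrophages, at 1619 CPM (1375 to 1894, 25 cells) in steady state and 910 (659 to 1226, 22 cells) after GM-CSF. MoMacDC_c5 came next at 938 and 624 CPM, then MoMacDC_c1 at 598 and 252, then MoMacDC_c2 at 262 and 189. The intervals of neighbours in this order did not overlap in steady state, and after GM-CSF those of macrophages and MoMacDC_c5 did. The ratio after GM-CSF over steady state was 0.422 (0.401 to 0.443) in MoMacDC_c1, where 7.26% of genes were called lower. It did not reach 2-fold in MoMacDC_c2 (0.721) or MoMacDC_c5 (0.665). The clusters within MoMacDC_c1 differed between the libraries: cluster 1 was 3.21% and 38.2% of it, and cluster 5 was 34.5% and 10.4%. MoMacDC_c4, which held NK markers in steady state, stood at 31.2 CPM there and 141 after GM-CSF.

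The level in cells that should lack Csf1r differed between the libraries. Steady-state B cells held 178 CPM (151 to 208), with a UMI in 19.9% of cells and up to 13 in 1 cell. After GM-CSF they held 15.9 CPM (4.34 to 40.8), in 2.53% of cells. T cells held 61.9 CPM in steady state and 0 UMIs in 39 cells after GM-CSF, a share with an interval up to 9.03%. In steady state the granulocytes (142 CPM, 23.3% of cells) and Progenitor DC (129 CPM, 40.1% of cells at a median of 7014 UMIs) were no higher in CPM than the B cells. Thinned to 1000 UMIs, the granulocytes kept a UMI in 13.8% of cells (12.3 to 15.5) and the B cells in 8.42% (4.89 to 13.3), so the measures differ and the steady-state granulocyte level is not told apart from background. After GM-CSF the granulocytes, at 114 CPM (101 to 129) in 13.96% of cells, stood above the B cells, while Progenitor DC at 19.8 CPM and neutrophils at 6.48 CPM did not. Neutrophils held 44.0 CPM in steady state, a lower call where 2.48% of genes in that type were called lower. The part of such RNA in the difference between conditions was not tested. The MoMacDC level in steady state was above that of the B cells in the same library.

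**Figure D2:**
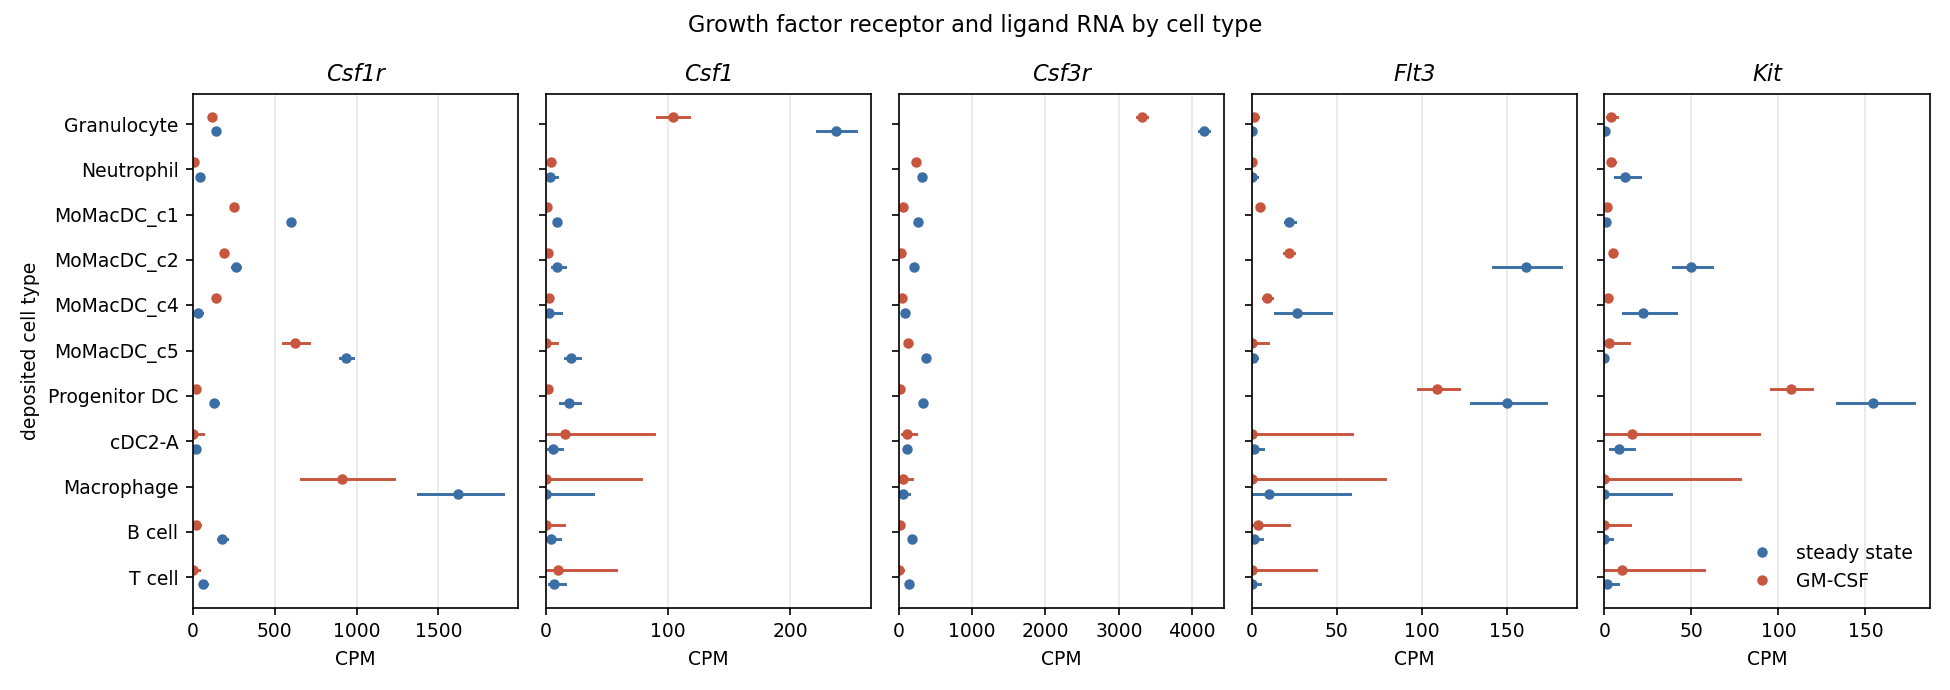
CPM of each of the 5 genes by deposited cell type in steady state (blue) and after GM-CSF (red), with exact Poisson 95% intervals. Each gene has its own axis from 0, and Activated DC (8 and 20 cells) is not drawn. Csf1 and Csf3r peak in granulocytes, Csf1r in macrophages and MoMacDC_c5, Kit in Progenitor DC, and Flt3 in Progenitor DC and, in steady state, MoMacDC_c2.

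Within the MoMacDC cells, Csf1r had a similar order over the clusters in both libraries at the upper end. Cluster 4 was highest at 973 CPM (930 to 1018) in steady state and 654 after GM-CSF. Cluster 2 followed at 758 and 332, and cluster 5 at 619 and 265, and the intervals of clusters 4, 2 and 5 were apart in steady state. The lowest in steady state was cluster 8 at 27.6 CPM (28 cells), then cluster 12 at 73.1, cluster 3 at 171 and cluster 9 at 199. After GM-CSF the lowest were clusters 12 and 9, at 17.8 and 26.2 CPM, which were also the clusters richest in Kit in both libraries. Of 7 clusters with at least 50 cells in both libraries, 5 were called lower after GM-CSF. Their ratios were 0.438 in cluster 2, 0.428 in cluster 5, 0.361 in cluster 6, 0.132 in cluster 9 and 0.315 in cluster 11. The background of lower calls in these 5 was 6.92%, 6.75%, 8.64%, 7.71% and 9.08%. Cluster 4 had a ratio of 0.672 (0.588 to 0.766), with a background of 6.29%. Cluster 3 stood at 171 CPM in steady state and 181 after GM-CSF, a ratio of 1.06 (0.874 to 1.30), with a background of 4.56%. In steady state clusters 3 (142 to 203) and 9 (172 to 228) overlapped the B cells (151 to 208), so both ratios start from a background level. The clusters were drawn from RNA that includes these genes, so their order is a description.

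**Figure D3:**
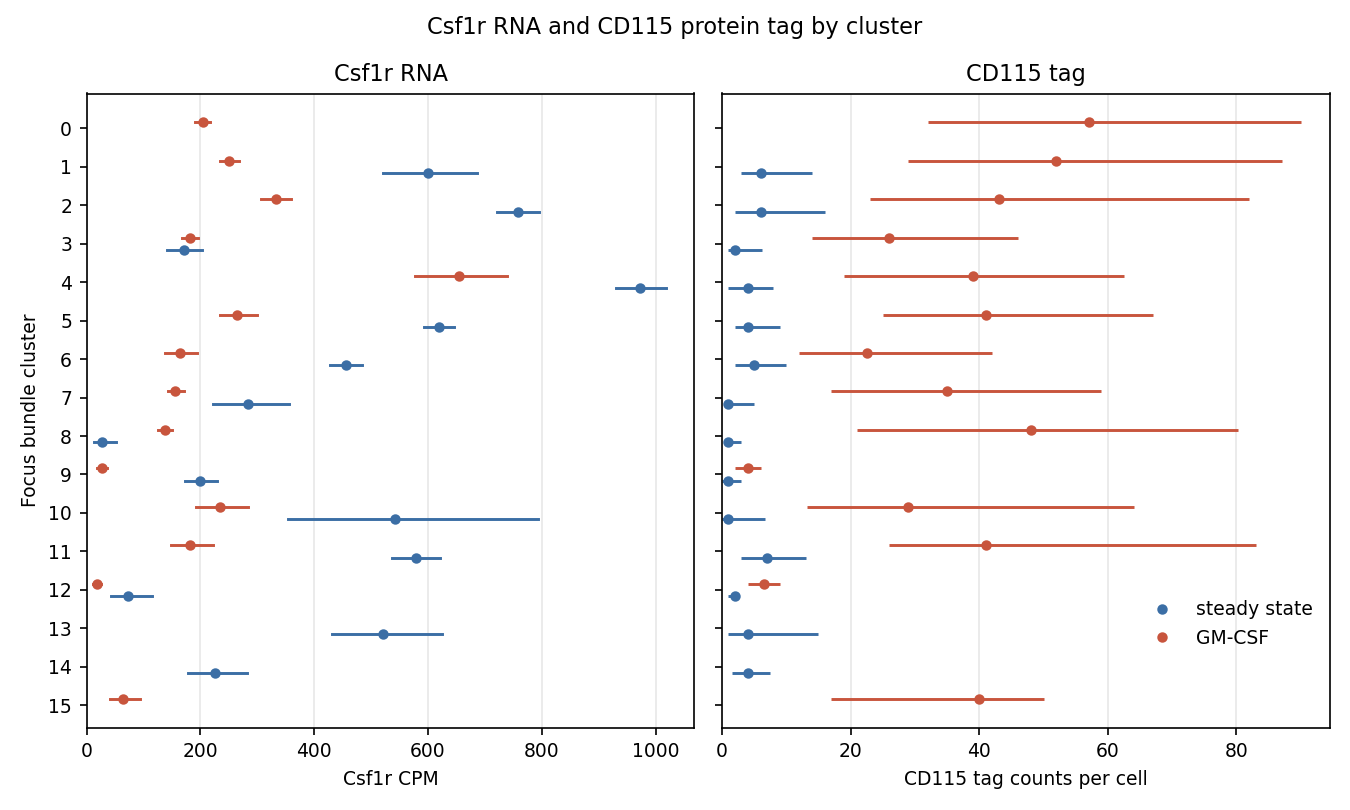
Csf1r CPM with exact Poisson 95% intervals (left) and CD115 tag counts per cell as median with the 25th and 75th percentile (right) for MoMacDC clusters of at least 20 cells. Csf1r RNA is lower after GM-CSF (red) in most clusters while the tag medians are higher.

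The CD115 tag moved the other way between the libraries. The median MoMacDC cell had 4 CD115 tag counts in steady state and 37 after GM-CSF, and CD115 made up 0.847% and 5.35% of the tag counts of these cells. Cells with 0 CD115 tag counts numbered 277 of 2135 and 27 of 3940. Tag medians were also higher in types with little Csf1r: 0 and 2 in B cells, 0 and 1 in T cells, 1 and 3 in neutrophils and 2 and 4 in granulocytes. Progenitor DC had 1 and 5. As a share of tag counts, CD115 went from 0.317% to 3.79% in T cells, from 1.19% to 4.38% in granulocytes and from 0.353% to 0.447% in B cells. The median of all 5 tags together was 778 counts in steady-state MoMacDC cells and 687 after GM-CSF. Each library was stained and sequenced once, so staining and condition cannot be told apart.

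Within each library, cells with more CD115 tag held more Csf1r RNA. In steady state the MoMacDC cells with 0 tag counts stood at 433 CPM (277 cells), those with 1 to 4 at 505, those with 5 to 9 at 596, those with 10 to 19 at 632, and those with 20 to 39 at 668. The 50 cells with 40 to 83 tag counts stood at 679 CPM and the 12 cells above that at 983 CPM. From 5 to 9 up to 40 to 83 tag counts, the steady-state intervals of neighbouring steps overlapped. After GM-CSF the 27 cells with 0 tag counts had no Csf1r UMI, and the same steps up gave 47.6, 99.3, 158, 192, 217 and 247 CPM. The steps are in the same direction in both libraries, yet cells of equal tag count differed between them: at 10 to 19 tag counts the level was 632 CPM in steady state and 158 after GM-CSF.

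**Figure D4:**
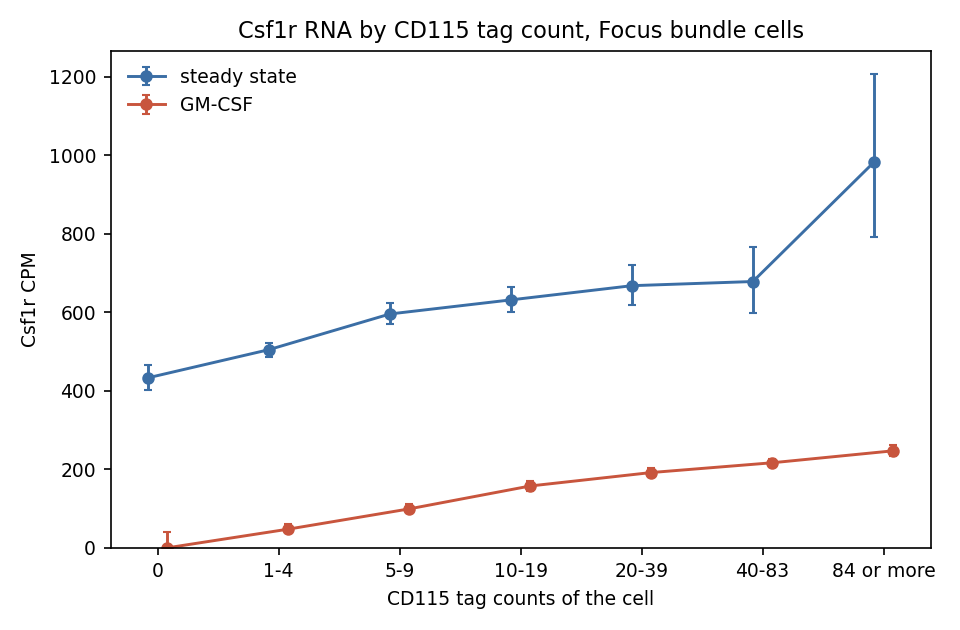
Csf1r CPM of MoMacDC cells grouped by their CD115 tag count, with exact Poisson 95% intervals, in steady state (blue) and after GM-CSF (red). Both lines go up from left to right, from 433 to 983 CPM and from 0 to 247 CPM, and the lines do not meet.

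Over single MoMacDC cells the Spearman correlation of Csf1r UMIs with CD115 tag counts was 0.271 in steady state (2135 cells) and 0.310 after GM-CSF (3940 cells). The cells share a library, and total UMIs correlated with the CD115 tag at 0.104 and 0.0578 and total tags at 0.107 and 0.212. Within clusters of at least 50 cells the correlation was positive in 7 of 7 in steady state (0.0960 to 0.432, median 0.198) and in 13 of 13 after GM-CSF (0.0475 to 0.288, median 0.203). Csf1r also correlated with the Ly6C tag (0.278 and 0.190) and the CD301b tag (0.241 and 0.0880), and negatively with the CD11c tag (-0.178 and -0.111) and the MHCII tag (-0.164 and -0.0901). In depth-scaled RNA, Csf1r ranked 2 of 8074 genes by its correlation with the CD115 tag in steady state, behind Psap, which encodes a lysosomal lipid-handling protein. After GM-CSF it ranked 7 of 8130, behind Crip1, Psap, the chemokine receptor gene Ccr2, Naaa, Capg and Dok2. Over all cells of each library, other types included, the correlations were 0.419 and 0.570. Csf3r ranked 91 and 3517, and Flt3 and Kit lay near the bottom of the list, at 7986 and 8037 in steady state and 8117 and 8121 after GM-CSF.

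The MoMacDC cells had been split by tags into CD115hi subsets, namely P-I (Ly6C+), P-III (Ly6C- MHC II+ CD301b-) and P-IV (CD301b+), with the cells low in CD115 as CD115-. A further 17 and 50 CD115hi cells fell in none of these subsets. One more subset, P-II (Ly6C- MHC II-), held 8 cells in each library. The split used the CD115 tag, so only RNA is compared here. The cut fell at unlike tag levels in the 2 libraries. P-I had a median of 32 CD115 tag counts in steady state and 111 after GM-CSF, and the CD115- cells 3 and 29. A subset compared between libraries is therefore not the same cut in both. In P-I, Csf1r stood at 700 CPM (651 to 752, 139 cells) in steady state and 304 (276 to 334, 187 cells) after GM-CSF. The ratio was 0.434 (0.385 to 0.490), where 7.12% of genes were called lower. After GM-CSF, P-III had 273 CPM (126 cells), P-IV 203 (313 cells) and the CD115- cells 174. P-IV over P-I was 0.667 (0.583 to 0.763) and P-IV over P-III 0.743 (0.628 to 0.881), both short of 2-fold. P-III over P-I was 0.898 (0.756 to 1.06), an interval that includes no difference. P-IV over the CD115- cells was 1.17 (1.06 to 1.29). P-IV, chosen for high CD115 tag, thus held little more Csf1r RNA than this mixed group, chosen for low CD115 tag. In steady state P-III and P-IV had 12 and 7 cells, with Csf1r at 640 and 572 CPM.

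**Figure D5:**
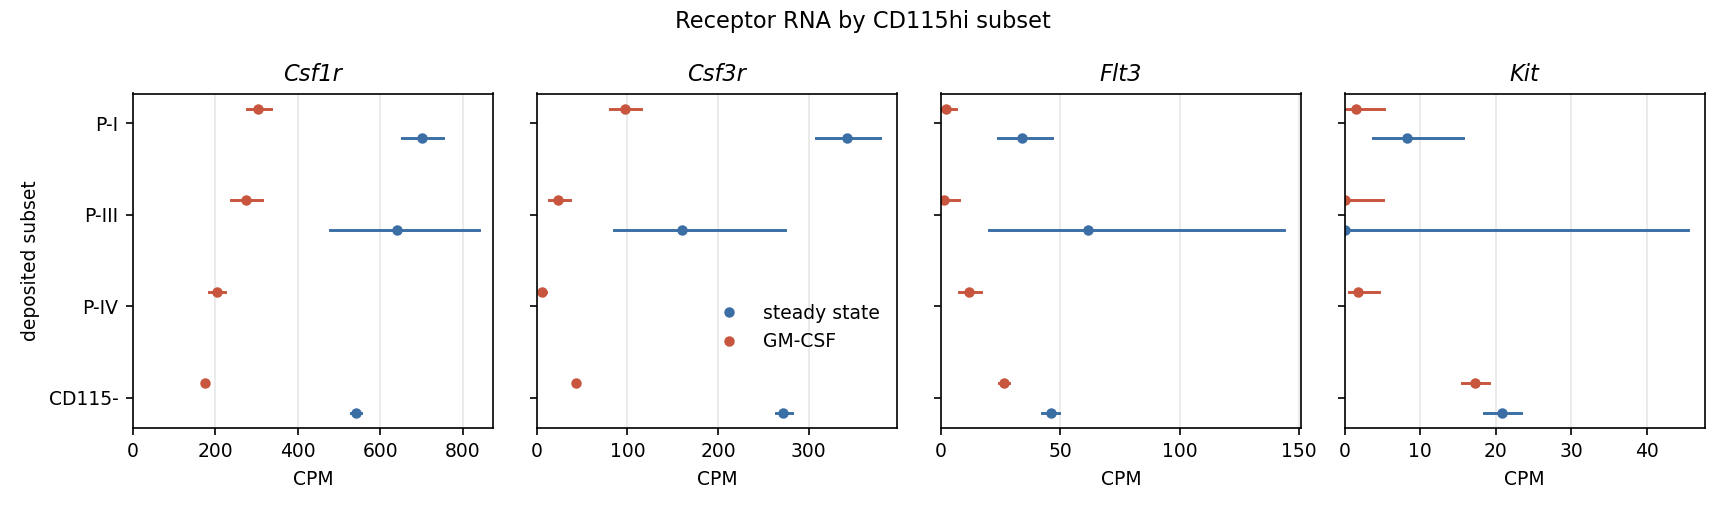
CPM of Csf1r, Csf3r, Flt3 and Kit with exact Poisson 95% intervals by tag-defined subset of at least 10 cells, in steady state (blue) and after GM-CSF (red). Csf1r in P-I is 700 CPM in steady state and 304 after GM-CSF. Csf3r after GM-CSF goes from 96.8 CPM in P-I to 5.78 in P-IV. The 10 neutrophil markers, not drawn, go from 3811 to 241 CPM between the same subsets.

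Csf3r, the G-CSF receptor gene, marked the granulocytes. In steady state they held 15270 Csf3r UMIs, 4155 CPM (4090 to 4222), with a UMI in 99.8% of cells. After GM-CSF they held 7996 UMIs, 3314 CPM (3241 to 3387), in 97.4%. The ratio was 0.797 (0.776 to 0.819), short of 2-fold. Neutrophils stood at 312.5 and 242 CPM, so granulocytes were 13.3 times (11.9 to 14.8) and 13.7 times (12.9 to 14.5) higher. Granulocytes carried 75.9% and 76.9% of all Csf3r UMIs.

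In the MoMacDC cells Csf3r was at 276 CPM (268 to 285) in steady state and, after GM-CSF, at 43.9 (41.4 to 46.4), with a UMI in 61.9% and 15.6% of cells. The ratio of 0.159 (0.149 to 0.169) was 0.122 with called doublets left out. It was lower in MoMacDC_c1 (269 and 55.6 CPM), MoMacDC_c2 (203 and 36.7), MoMacDC_c5 (366 and 130.5) and Progenitor DC (337 and 21.5). In those 4 types 7.26%, 6.81%, 6.73% and 8.06% of genes were called lower. The B cells of the same libraries held 179 CPM (152 to 210; 22.4% of cells) and 11.95 CPM (2.47 to 34.9; 2.53%), and the steady-state T cells 143 CPM. The B cell ratio was 0.0667 (0.0136 to 0.198), where 13.8% of genes were called lower, so Csf3r RNA in cells that should lack it was also lower after GM-CSF. Its part in the MoMacDC difference was not tested. Csf3r in MoMacDC_c2 in both libraries and in Progenitor DC after GM-CSF had intervals that overlapped those of the B cells, and is read as background. Cluster 4, which was 88.9% and 93.5% of MoMacDC_c5, held 177 and 101 CPM, a ratio of 0.571 (0.401 to 0.794) that did not pass. Cluster 9, most of Progenitor DC, held 110 and 5.38 CPM, so both clusters were at or below the B cells in steady state. Clusters 2, 5 and 6, most of MoMacDC_c1 in steady state, held 214, 178 and 205 CPM there. Their CPM intervals also overlapped that of the B cells. The share of cells gave another reading for MoMacDC_c1 as a whole, so the measures differ. In steady state 72.4% of its cells had a Csf3r UMI, against 22.4% of B cells, at medians of 7322 and 2976.5 UMIs. In thinned cells these shares were 21.7% (19.5 to 24.1) and 11.1% (6.97 to 16.4), and the intervals did not overlap. Cluster 11 was 7.52% of MoMacDC_c1 there, and its part in these shares was not tested. Clusters 11 and 14, with neutrophil markers, held 1136 and 1091 CPM in steady state, and the ratio over the MoMacDC cells without clusters 11, 14 and 15 was 0.171.

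Among the subsets after GM-CSF, Csf3r went from 96.8 CPM in P-I (81.2 to 115) to 23.0 in P-III (13.4 to 36.8) and 5.78 in P-IV (3.08 to 9.89). The UMIs behind these were 135, 17 and 13. The 10 neutrophil markers stood at 3811, 251 and 241 CPM in the same subsets. The part of neutrophil RNA in the Csf3r steps was not tested. P-III over P-I was 0.237 (0.134 to 0.395), where 2.71% of genes were called lower. P-IV over P-I was 0.0597 (0.0310 to 0.106), where 3.53% were called lower. The P-III and P-IV levels are within the interval of the B cells in that library. In P-I itself Csf3r was 342 CPM in steady state, and the ratio was 0.283 (0.231 to 0.345).

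Flt3 was highest in Progenitor DC after GM-CSF. The 20 cells deposited as Activated DC held 9 UMIs there, 80.6 CPM (36.8 to 153), an interval overlapping that of Progenitor DC. In steady state MoMacDC_c2, at 161 CPM, and Progenitor DC were about as high, with overlapping intervals. Progenitor DC held 185 UMIs in steady state, 150 CPM (129 to 173), in 61.8% of 152 cells, and 325 UMIs after GM-CSF, 109 CPM (97.5 to 122), in 56.5% of 393 cells. The ratio was 0.728 (0.606 to 0.877). Granulocytes held 2 and 3 Flt3 UMIs, neutrophils 0 and 0, and B cells 1 and 1, so 97.8% and 98.0% of the Flt3 UMIs were in MoMacDC cells. Within those, Progenitor DC stood 4.25 times (3.57 to 5.05) above the rest in steady state and 8.85 times (7.54 to 10.4) after GM-CSF, where 9.77% and 7.60% of genes were called higher.

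Outside Progenitor DC, Flt3 was called lower after GM-CSF in MoMacDC_c1 (22.3 and 4.85 CPM) and MoMacDC_c2. In MoMacDC_c2 it stood at 161 CPM (142 to 182) in steady state, with a UMI in 69.5% of cells, and at 21.7 (18.8 to 24.9) in the GM-CSF library, in 10.4%. The ratio was 0.135 (0.111 to 0.163). MoMacDC_c2 had 177 cells in steady state and 1471 after GM-CSF, and its clusters differed: cluster 3 was 49.2% and 33.7% of it, and cluster 0 was 7.91% and 44.1%. Cluster 3 alone was at 239 CPM (205 to 278) of Flt3 in steady state and 44.5 after GM-CSF. Its steady-state level was the highest of the clusters of at least 20 cells. Clusters 9 and 12 stood at 141 and 146 CPM in steady state and 116 and 102 after GM-CSF. Cluster 6 held 55 Flt3 UMIs (25.02 CPM) in steady state and 0 after GM-CSF, at least 7.20-fold lower with 3 counts as the floor. Cells outside Progenitor DC with a Flt3 UMI held 10.8 times the summed cDC2 marker level of those without in steady state and 3.82 times after GM-CSF. The cDC1 markers were at 1.49 (1.09 to 2.02) and 3.75 times (2.91 to 4.77), and the plasmacytoid markers at 1.19 and 1.13 times. The 4380 and 6181 cells without a Flt3 UMI were of all types outside Progenitor DC, so these ratios mix cell types. Granulocytes, for one, held 3.27 and 2.49 CPM of the cDC2 markers. The part of cell type in these ratios was not tested. Within Progenitor DC the cDC2 markers were at 0.766 and 1.22 times. After GM-CSF, P-IV held 26 Flt3 UMIs (11.6 CPM), P-I 3 and P-III 1. P-IV over P-I was 5.38 (1.65 to 27.8) for Flt3 and P-IV over P-III 8.55 (1.41 to 351), both with too few UMIs for a call. P-IV over the CD115- cells was 0.437 (0.283 to 0.647) for Flt3, where 4.69% of genes were called lower. The CD115- cells are a mixed group that takes in Progenitor DC cells, and held 590 Flt3 UMIs.

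Kit was highest in Progenitor DC in both libraries. MoMacDC_c1 in steady state held 10 Kit UMIs beside 212 of Flt3. Progenitor DC held 191 Kit UMIs in steady state, 154.5 CPM (133 to 178), in 64.5% of cells, and 319 after GM-CSF, 107 CPM (95.6 to 119), in 51.9%. The ratio was 0.692 (0.577 to 0.833), short of 2-fold. These were 61.0% and 75.8% of all Kit UMIs, and the level was 21.4 times (16.7 to 27.6) and 35.8 times (27.7 to 46.9) that of the other MoMacDC cells. MoMacDC_c2 held 49.5 CPM in steady state and 5.15 after GM-CSF, a ratio of 0.104 (0.0712 to 0.151), and cluster 3 held 57.8 and 10.3. B cells held 0 Kit UMIs in both libraries. Neutrophils held 13 and 19 UMIs, 11.9 and 3.85 CPM. P-III held none and P-IV 4 after GM-CSF.

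Cells of Progenitor DC with a UMI of both Flt3 and Kit numbered 61 in steady state and 114 after GM-CSF, and the product of the separate shares gives 60.6 and 115. The 2 receptors were thus found together about as often as their shares alone give, at this depth. Cells in S or G2M phase, as deposited, held 2.26 times (1.83 to 2.79) the Kit level of those in G1 among MoMacDC cells after GM-CSF, where 6.21% of genes were called higher. In steady state the ratio was 1.18 (0.898 to 1.54), where 3.67% were called higher. Both ratios mix cell types, and Progenitor DC carried most of the Kit UMIs. Clusters 9 and 12, most of Progenitor DC, held 102 and 106 CPM of Kit after GM-CSF. The part of cell type in these ratios was not tested. The stem and progenitor markers were not higher in Kit-positive Progenitor DC cells in either library (1.23, 0.692 to 2.28, and 0.751, 0.401 to 1.398). Outside Progenitor DC, cells with a Kit UMI held 2.69 (2.07 to 3.44) and 2.15 times (1.49 to 3.0003) the level of those without. Other lists were also raised in these cells: cDC2 markers at 3.58 and 1.85 times, cDC1 markers at 1.58 and 3.59. NK markers were at 0.375 and 4.91 times, B cell markers at 0.0988 and 0.139, and mast cell and basophil markers at 0.359 and 0.430. The 4604 and 6321 cells without a Kit UMI were of all types outside Progenitor DC, so these ratios also mix cell types.

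The genes around these receptors were described by lists. Of 9 transcription factors known to act on Csf1r, all with enough UMIs in the MoMacDC cells, 4 were lower after GM-CSF and none higher. Among them, Cebpb went from 1711 to 318.5 CPM, Maf from 40.1 to 10.0 and Ets2 from 47.3 to 5.54. Spi1, which encodes PU.1, stood at 613 and 516 CPM (ratio 0.842), and Runx1 at 146 and 188 (1.29). The list's median log2 ratio was -0.86, against -0.06 over all genes tested and 9.46% called lower. In P-I, 2 of 8 tested were lower, Cebpb among them (1636 and 560 CPM), where 7.12% of genes were called lower.

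Of 17 genes of CSF-1 receptor signalling and turnover, 4 were lower in the MoMacDC cells and none higher, where 9.46% of all genes were called lower and 8.66% higher. Among those 4 were the Src-family kinase gene Fgr (407 and 166.5 CPM), the transducer gene Stat3 (234 and 114) and its feedback inhibitor gene Socs3 (115 and 31.6). The list's median log2 ratio was -0.45. In granulocytes 1 of the 17, the adaptor gene Shc1, was higher and 1, Socs1, lower, where 7.29% of all genes were called higher and 3.20% lower. Of 10 genes of G-CSF receptor signalling, 7 were tested in granulocytes and none passed in either direction.

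Of 16 other growth factor receptor genes, 11 were tested in the MoMacDC cells. Fgfr1 (3.81 and 114 CPM) and Il7r (0.535 and 3.29) were higher, where 8.66% of genes were called higher, and Igf1r (54.2 and 22.0) and Met (15.9 and 6.35) were lower, where 9.46% were called lower. Of 9 dendritic progenitor and plasmacytoid genes, 6 were tested and 4 were lower (Ccr9, Ly6d, Runx2 and Tcf4), beside the same 9.46%. Tcf4, a factor of plasmacytoid cells, went from 131 to 50.2 CPM.

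The genes most like each member were ranked by Pearson correlation of log CPM over 17 type-by-library groups, among 9751 genes. The groups share 2 libraries, so the values are a description. Csf1r was closest to the lectin gene Clec4a3 (0.937) and to Asph (0.932), and Csf1 to 2810474O19Rik (0.961), with Il1b, an inflammatory cytokine gene, among its 5 closest (0.928). Csf3r was closest to Ndel1 (0.973), Flt3 to Adam23 (0.920) and Kit to Mdh2 (0.855). Among the members themselves, Csf1 and Csf3r correlated at 0.900 and Flt3 and Kit at 0.696, while the other pairs lay between -0.302 and 0.261. Of the 5 genes named closest to each member, 0 to 2 remained among the closest 5 under other settings, so these orders are weakly fixed.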

How the data were processed

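Per the labels and the study's methods, the authors built 10x 3' v3 libraries, aligned RNA to mm10 with Cell Ranger 3.0.2, counted tags with CITE-seq-Count 1.4.2 and clustered cells with Seurat 3.6.0, keeping cells of 200 to 5000 genes with at most 15% mitochondrial RNA. The deposited tables hold raw counts: RNA UMI counts per gene and cell, and counts of 5 antibody tags per cell. Cell type, cluster, subset and phase were taken from the deposited cell tables, whose mitochondrial percent column gave only a check of the authors' filter. The tables of all cells and of the MoMacDC cells held the same UMIs.

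For each group of cells the UMIs of a gene were added up and scaled to CPM, using Python 3.11.15, numpy 2.4.6, pandas 2.3.3, scipy 1.17.1 and scanpy 1.11.5. With 1 library a condition no test was run. A gene with at least 50 UMIs over both groups was called by a 2-fold difference after adding 0.5 counts to each sum. Sums of 0 were bounded with 3 counts. For thinned values each cell was drawn down to 1000 UMIs, leaving out 38 and 578 shallower cells. Scrublet called 152 (3.15%) and 186 (2.73%) cells as doublets, which were kept in the main values. Genes named besides the members were those of the lists called in a comparison, the top genes by correlation, and genes of stated role. Some genes of the lists are not reported here by name. The members and lists were chosen with earlier results of these data known. The search for GGGCGG and the values without clusters 11, 14 and 15 or without MoMacDC_c4 were added after the data were seen. Promoter windows are from RefSeq on GRCm38.p6, and gene positions from GENCODE. The scripts were tested on simulated data.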

Additional observations from a re-analysis of the deposited data

How the results depend on the processing

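With 1 library per condition the spread between mice is unknown, and no interval given covers it. No paired analysis was possible because each condition has 1 library and the labels carry no replicate numbers. Of the main values recomputed under other settings, 135 moved by less than their counting interval (or, for counts of genes, 1.5 times), 42 by more, and no called value turned its direction. Thinning to 1000 UMIs, weighting each cell equally and dropping the 20 genes of highest count from the denominator gave, for Csf1r in MoMacDC cells, 603, 618 and 655 CPM in steady state and 205, 208 and 225 after GM-CSF. Dropping those 20 genes gave 306 and 136 CPM for Csf1 and 5358 and 4345 for Csf3r in granulocytes, and 178 and 131 for Flt3 and 184 and 129 for Kit in Progenitor DC. Equal weights gave, after GM-CSF, 119 CPM for Csf1, 3559 for Csf3r and 121 for Kit. Thinning gave 232 CPM for Kit in steady state and a Kit ratio of 0.510.

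Ratios in MoMacDC cells were 0.348 for Csf1r and 0.589 for Flt3 without MoMacDC_c4, and 0.292 for Csf1 and 0.171 for Csf3r without clusters 11, 14 and 15. Csf3r gave 0.122 without doublets and 0.182 with equal weights (0.854 in granulocytes), and Flt3 0.589 when thinned. The correlation of Csf1r with the CD115 tag was 0.310 and 0.341 on scaled values, 0.139 and 0.123 when thinned and 0.198 and 0.203 as the median within clusters. The rank of Csf1r was 5 and 13 when thinned. The granulocyte share of Csf1 UMIs was 87.3% and 83.9% without doublets and 95.5% and 91.7% when thinned. At a minimum of 20 UMIs, 815 genes in place of 456 were higher in granulocytes, and in Progenitor DC 637 in place of 423 were higher and 912 in place of 587 lower. Flt3 in P-IV over P-I gave no value when thinned, since P-I kept no Flt3 UMI. The causes of these shifts were not tested.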

Other observations

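Among MoMacDC cells, Csf1r was lower in cells deposited as G2M, at 277 CPM in steady state and 114 after GM-CSF, than in those in G1, at 578 and 218 CPM. Cells in S phase stood at 566 and 184 CPM. S and G2M together over G1 gave 0.830 and 0.648, both short of 2-fold. Csf1 and Csf1r were found in the same granulocyte in 149 of 1929 steady-state cells, where the product of the separate shares gives 125. After GM-CSF both were found in 28 of 1791 cells, where the product gives 26.9. Csf1r in steady-state granulocytes is not told apart from background, and the part of unequal depth between cells was not tested. In P-I, Csf2rb2, a receptor chain gene, was the 1 other growth factor receptor gene of 8 tested that was higher after GM-CSF, and Igf1r (61.3 and 27.2 CPM) the 1 that was lower, where 4.99% of all genes in P-I were called higher and 7.12% lower. The immediate early genes Jun, Fosb, Jund and Fos were among the genes most negatively correlated with the CD115 tag in steady state.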
